A study of Mus musculus with 6 samples.

Results

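A group of 35 genes for antioxidant, thioredoxin and glutathione proteins was examined in CD4 T cells labelled WT or AMPK KO. The genes were chosen by name for what their proteins do, with no rule on their levels but with earlier results of these data known. These 35 are among the 23282 gene lines listed for each library. They cover the transcription factor NRF2 (gene Nfe2l2) and its inhibitor KEAP1, glutathione synthesis and reduction, the thioredoxins and their reductases, sulfiredoxin, the peroxiredoxins, glutathione peroxidases, superoxide dismutases and catalase, glutaredoxins, glutathione transferases, NQO1, and the pentose phosphate enzymes that refill NADPH. All 35 symbols were found among the listed genes. The WT mice were Prkaa1fl/fl without Cre, and the AMPK KO mice carried the same floxed alleles together with CD4Cre, which removes Prkaa1, the gene of the AMPK catalytic subunit alpha 1, in cells that express Cre from the Cd4 promoter. Both groups therefore carry the floxed gene, and there were 3 samples in each. The study states that its mice, C57BL/6J and the CD4Cre and Prkaa1fl/fl lines, were female and 6 to 8 weeks old. CD4 T cells from spleen and lymph nodes were left for 1 h and then activated through CD3 and CD28 with antibodies at 2 µg/mL each, for 24 h by the sample labels and for 6 h by the study's methods. RNA was read from transcript 3′ ends (QuantSeq libraries, from 500 ng of total RNA).

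Activated T cells produce hydrogen peroxide in their mitochondria and at the membrane, and these genes encode the proteins that remove it. Peroxiredoxins reduce peroxide with electrons from thioredoxin, thioredoxin reductase recharges thioredoxin from NADPH, and sulfiredoxin rescues peroxiredoxins that have been over-oxidized. Glutathione works in parallel through glutathione peroxidases, glutaredoxins and transferases and is recharged by glutathione reductase. KEAP1 holds NRF2 back until oxidants or electrophiles modify it, and NRF2 then activates many of these genes through antioxidant response elements in their control regions.

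Levels are given on the deposited scale, log2 of the TMM-normalized CPM plus 1, on which the change of weakly expressed genes is understated. A log2 fold change is the AMPK KO mean minus the WT mean on that scale. It was tested with limma over the 11279 genes with a mean level of at least 1 across the 6 libraries, and an adjusted p (Benjamini-Hochberg) under 0.05 was counted as a call. The libraries held 9575096 to 10168121 reads on genes in WT and 10515155 to 11185360 in AMPK KO. Rn45s, the ribosomal RNA precursor, took 20.7% to 24.9% of the WT reads and 8.48% to 10.8% of the AMPK KO reads. The targeted gene Prkaa1 was at 4.64, 5.24 and 4.86 in WT and at 4.08, 4.72 and 4.67 in AMPK KO, so the groups overlapped, and its log2 fold change of −0.43 was not called (standard error, SE, 0.25, limma adjusted p = 0.357). It was −0.26 without WT 2 and −0.22 without AMPK KO 1. The sources used here do not say whether the 3′ end of Prkaa1 lies in the deleted part, so these reads do not check the genotype. Xist, the RNA of the inactive X chromosome, was at 0.93 to 2.16 in WT and at 7.55 to 7.92 in AMPK KO, and the Y-linked gene Ddx3y was at 8.44 to 8.53 in WT and 6.93 to 7.28 in AMPK KO. Sex-linked transcripts thus differed with the groups, and a difference of sex cannot be told apart from one of genotype here. Reads of a Y-linked gene in all 6 libraries also conflict with the study's statement that its mice were female. The reason was not tested.

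Of the 35 genes, 32 passed the filter on low levels and were tested. Srxn1, Txn1 and Prdx1 were called, each higher in AMPK KO, and no gene of the group was called lower. These 3 are 9.38% of the 32 tested, beside 5.65% of all tested genes called in either direction and 2.54% called higher. At an unadjusted p under 0.05 in limma, 12 of the 32 passed, beside 2405 of all 11279 tested genes. The log2 fold change was above 0 for 27 of them and below 0 for 5, with a median of 0.29, whereas over all tested genes 51.2% were above 0 and the median was 0.02. In 14 of the 32 genes (43.8%) no AMPK KO library overlapped the WT range, 12 with AMPK KO higher and 2 with AMPK KO lower, and over all tested genes this held for 25.6%, with AMPK KO higher in 11.6%. Mgst1, which passed the filter only through AMPK KO, is one of the 12 and of the 27. The 35 genes were also chosen with earlier results of these data known, so these counts are descriptions. In bulk RNA, fewer cells of a type and less RNA per cell cannot be told apart. The study describes the samples of a group as biologically independent, but the labels name no animals, so the p-values measure the spread between these samples.

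**Figure D1:**
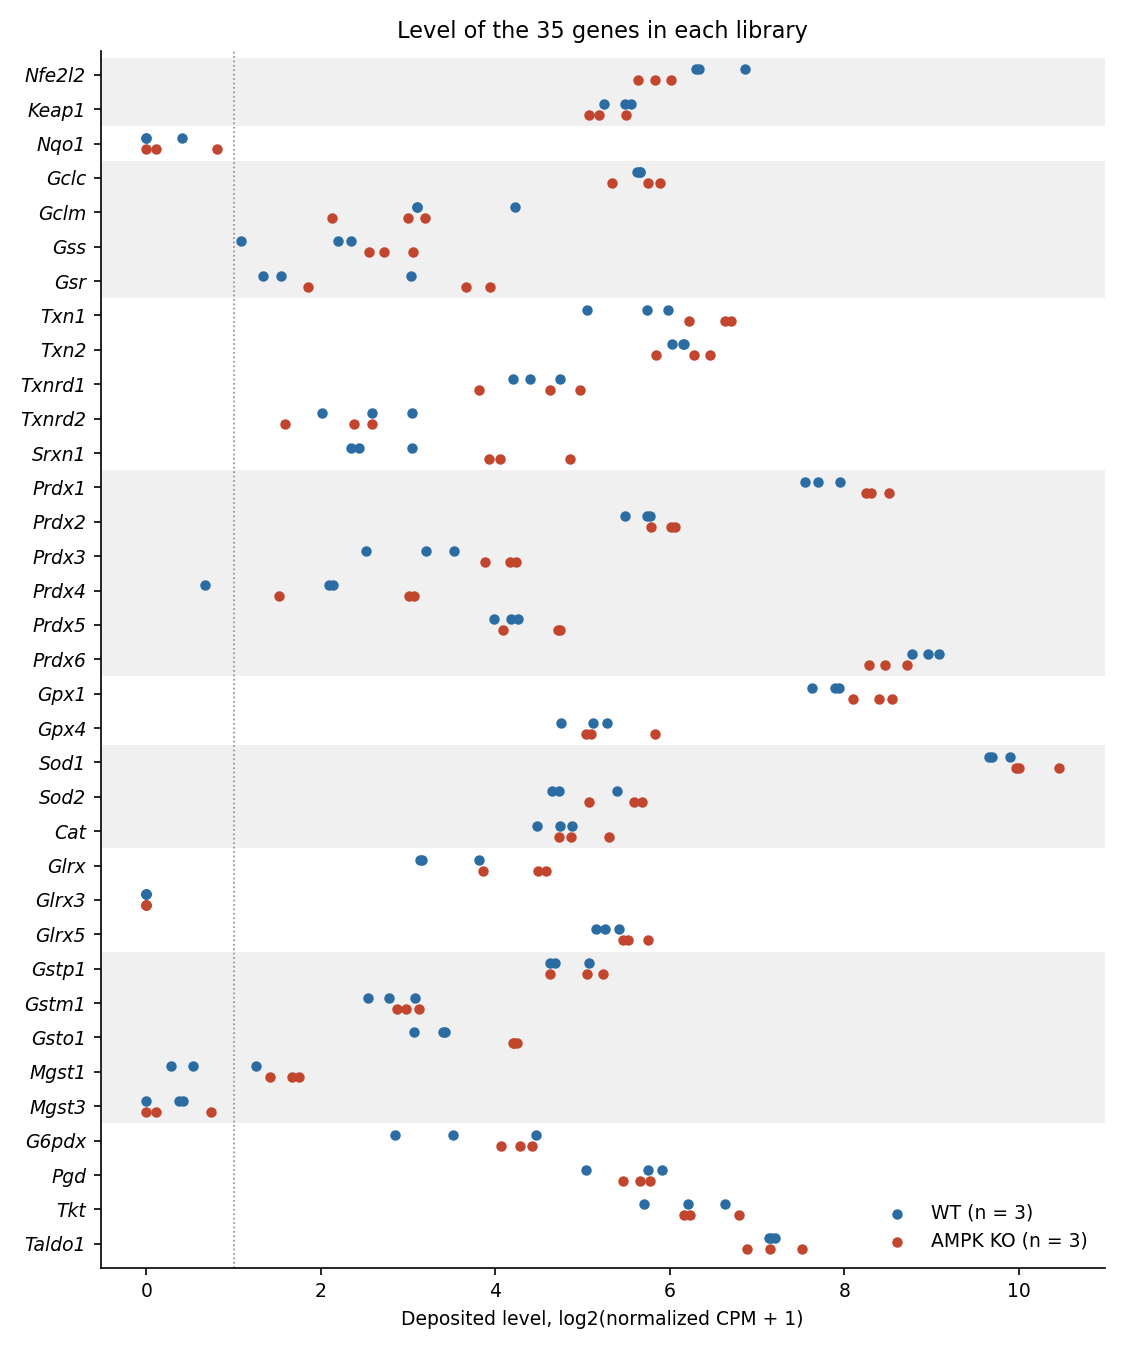
Level of each of the 35 genes in the 6 libraries, as log2(normalized CPM + 1), with WT in blue and AMPK KO in red and the roles separated by shading. The dotted line marks the level of 1 used as the filter on the mean, and Srxn1, Txn1, Prdx1, Prdx3, Gpx1 and Gsto1 show AMPK KO points to the right of every WT point.

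The 3 genes not tested were close to 0 in all libraries. Nqo1, a quinone reductase often used as a readout of NRF2, was at 0.41, 0 and 0 in WT and at 0.12, 0 and 0.81 in AMPK KO, which came from 0 to 9 reads a library. Mgst3, a microsomal glutathione transferase, was at 0 to 0.42 in WT and 0 to 0.74 in AMPK KO, with at most 8 reads. Glrx3, a monothiol glutaredoxin, was listed at 0 in all 6 libraries. For Nqo1 and Mgst3 no difference could be detected at this depth, and why Glrx3 is at 0 was not tested.

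**Figure D2:**
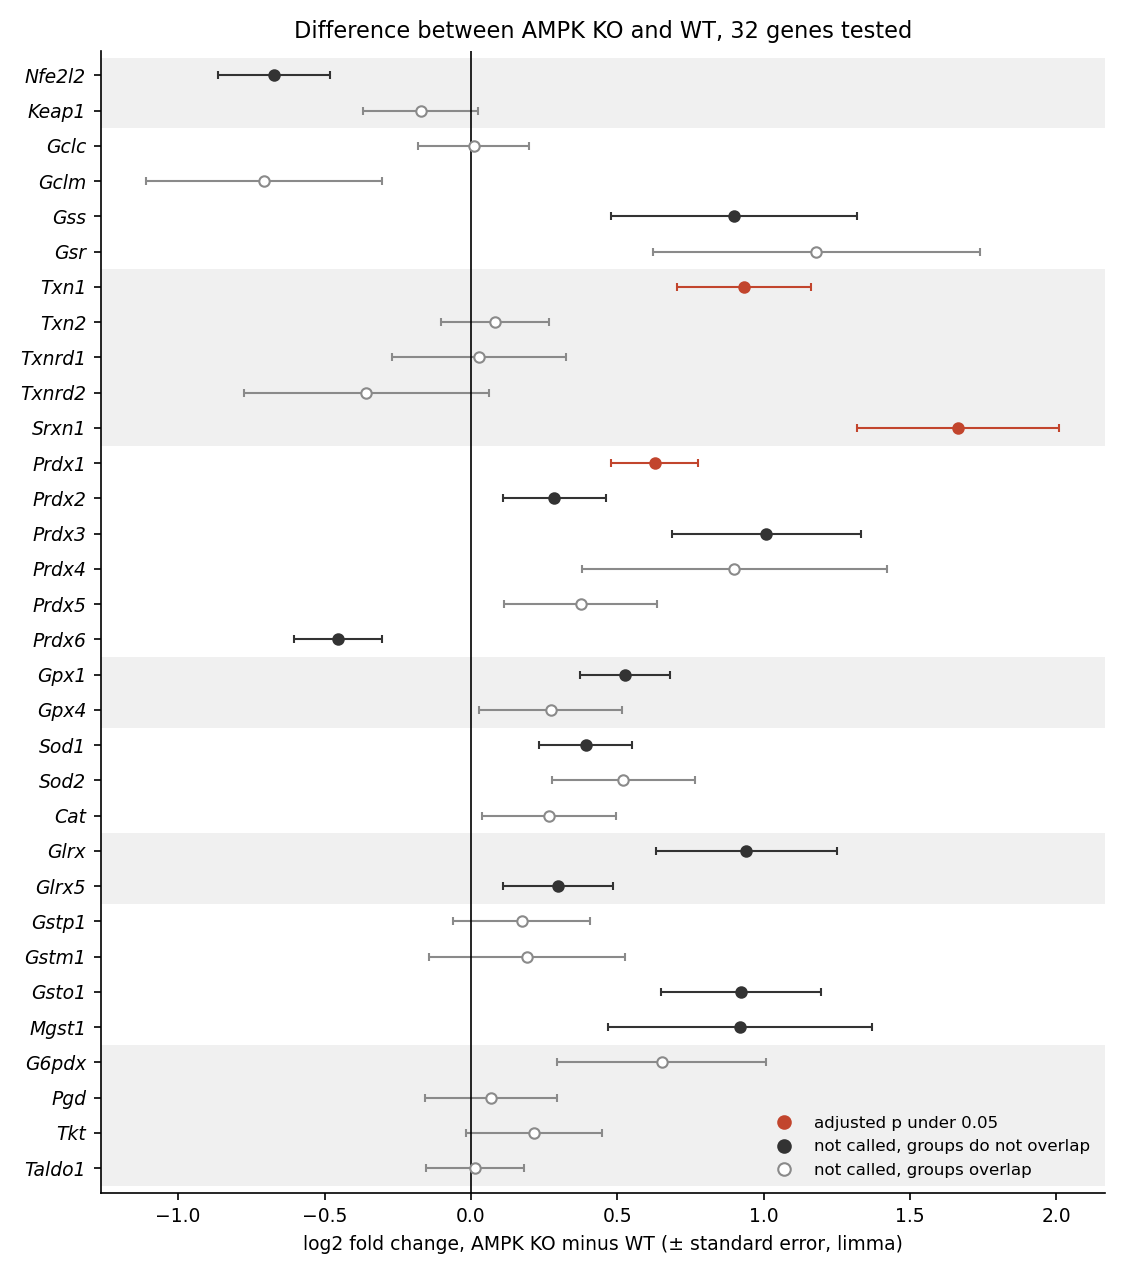
Log2 fold change of the 32 tested genes, AMPK KO minus WT, with the standard error of limma as bars and the roles separated by shading. The called genes Srxn1, Txn1 and Prdx1 are in red at 1.66, 0.93 and 0.63, filled black points are uncalled genes whose groups do not overlap, and open points are those whose groups overlap.

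The called genes belong to one enzymatic cycle. Prdx1 is the abundant cytosolic peroxiredoxin, Txn1 is the cytosolic thioredoxin that reduces it, and Srxn1 is the sulfiredoxin that repairs its over-oxidized form. Their promoters are shown as sequence context for the 3 called genes. Whether NRF2 acts on these genes in these cells was not tested. Each window runs from 250 bases before to 50 bases after the RefSeq start site (GRCm38.p6), 5′ to 3′ on the strand of the gene, and capitals mark a match to the core letters of the antioxidant response element, TGACNNNGC, searched on both strands. The Srxn1 window is chr2:152105274-152105573 (plus strand), that of Txn1 is chr4:57956362-57956661 (minus strand) and that of Prdx1 is chr4:116685349-116685648 (plus strand).
Srxn1: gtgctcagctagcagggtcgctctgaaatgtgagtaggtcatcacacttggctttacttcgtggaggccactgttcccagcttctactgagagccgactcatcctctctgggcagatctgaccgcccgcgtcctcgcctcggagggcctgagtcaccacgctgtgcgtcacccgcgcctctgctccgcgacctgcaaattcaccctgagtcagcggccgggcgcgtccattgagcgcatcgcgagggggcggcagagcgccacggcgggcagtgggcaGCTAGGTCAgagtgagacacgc
Txn1: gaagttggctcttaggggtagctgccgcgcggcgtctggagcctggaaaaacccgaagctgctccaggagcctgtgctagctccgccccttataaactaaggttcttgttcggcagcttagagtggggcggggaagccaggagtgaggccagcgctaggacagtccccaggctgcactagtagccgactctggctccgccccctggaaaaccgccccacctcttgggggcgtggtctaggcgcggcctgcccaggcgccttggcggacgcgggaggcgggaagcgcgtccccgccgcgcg
Prdx1: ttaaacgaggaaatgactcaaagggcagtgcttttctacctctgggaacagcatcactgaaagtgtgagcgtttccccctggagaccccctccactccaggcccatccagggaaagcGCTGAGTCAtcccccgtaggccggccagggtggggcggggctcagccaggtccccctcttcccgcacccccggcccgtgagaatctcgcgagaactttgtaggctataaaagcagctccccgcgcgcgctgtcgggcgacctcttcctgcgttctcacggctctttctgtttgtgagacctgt
The Srxn1 window held 1 match, GCTAGGTCA on the reverse strand, whose first base lies at position 28 from the start site. In Prdx1 the match was GCTGAGTCA, also on the reverse strand, at position −133. No match to these letters was found in the Txn1 window. A promoter was found for 32 of the 35 genes, and 9 of the 32 (28.1%) held the core letters, namely G6pdx, Gclm, Mgst1, Nfe2l2, Pgd, Prdx1, Sod1, Srxn1 and Txnrd1. Among all 32851 windows of the same length 12.4% did, and among the 27025 genes with a window 14.0% did in at least one. The genes were chosen in part for their known link to NRF2, so a higher share was partly set by that choice. A match of this kind describes letters and not a bound site.

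Srxn1 showed the largest log2 fold change among the tested genes of the group. Its level was 3.05, 2.35 and 2.44 in WT and 3.92, 4.86 and 4.05 in AMPK KO, from 39 to 300 reads a library. Every AMPK KO library lay above every WT library, and AMPK KO 2 was the highest. The mean rose from 2.61 ± 0.38 (SD, n = 3) to 4.28 ± 0.51 (SD, n = 3), a 3.17-fold rise (log2 fold change 1.66, SE 0.34, limma adjusted p = 0.0127). The gene lies at chr2:152105516-152111376 on the plus strand (GRCm38), where no other annotated gene overlaps it.

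Txn1 was at 5.05, 5.98 and 5.73 in WT and at 6.70, 6.22 and 6.63 in AMPK KO, from 296 to 1224 reads. The groups did not overlap, although AMPK KO 2, the lowest of its group, was close to WT 2. Its rise was 1.91-fold (log2 fold change 0.93, SE 0.23, limma adjusted p = 0.0289). Txn1 lies at chr4:57943373-57956411 on the minus strand, with no overlapping gene.

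Prdx1 was at 7.55, 7.95 and 7.70 in WT and at 8.25, 8.52 and 8.31 in AMPK KO, and with 1723 to 3923 reads it was measured more deeply than the other called genes. The AMPK KO values lay close together, and all were above WT. The rise was 1.54-fold (log2 fold change 0.63, SE 0.15, limma adjusted p = 0.0248). Prdx1 lies at chr4:116685544-116700822 on the plus strand and overlaps no other gene.

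These calls rest on few libraries. Without WT 3 none of the 3 passed (adjusted p of 0.0718 for Srxn1, 0.0958 for Txn1 and 0.129 for Prdx1 in limma), and without WT 1 or without AMPK KO 1 only Srxn1 did, while the log2 fold changes stayed between 1.38 and 1.88 for Srxn1, 0.66 and 1.13 for Txn1, and 0.54 and 0.74 for Prdx1 over the alternatives tried. Without the filter on low levels, the adjusted p values were 0.0568, 0.0921 and 0.0614 in limma for Srxn1, Txn1 and Prdx1, so that no gene of the group was called. Summed macrophage markers were also higher in every AMPK KO library (831.9 to 1554 CPM) than in WT (431.7 to 492.8 CPM), and their part in these calls was not tested.

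**Figure D3:**
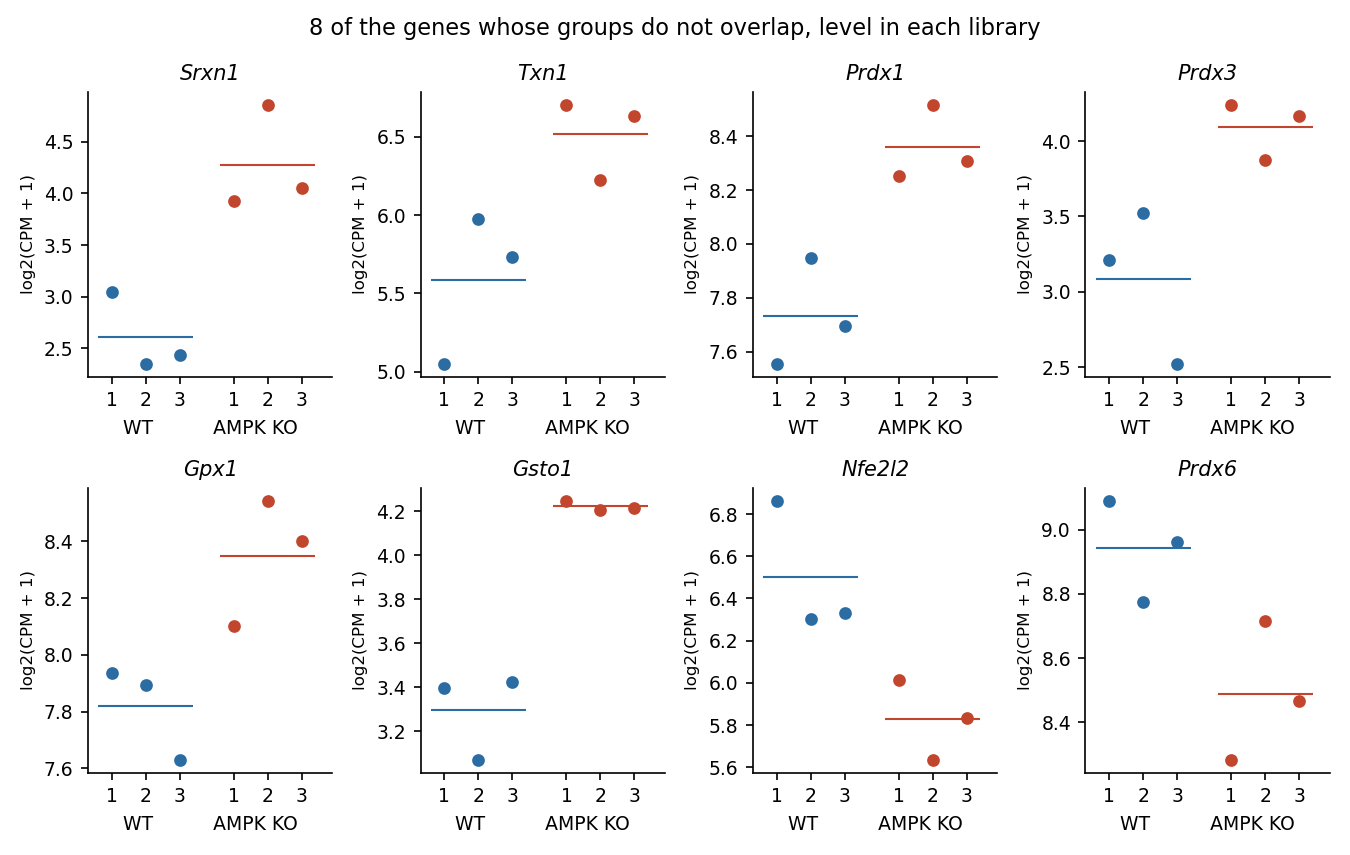
Level of 8 genes in each library, as log2(CPM + 1), with WT libraries 1 to 3 in blue, AMPK KO libraries 1 to 3 in red and a line at each group mean; the axes do not start at 0. In Srxn1, Txn1, Prdx1, Prdx3, Gpx1 and Gsto1 the AMPK KO libraries lie above the WT libraries, and in Nfe2l2 and Prdx6 below them.

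Neither thioredoxin reductase was called, nor was the mitochondrial thioredoxin. Txnrd1, the cytosolic thioredoxin reductase, was at 4.20, 4.39 and 4.74 in WT and at 4.63, 4.98 and 3.81 in AMPK KO, with a log2 fold change of 0.03 (SE 0.30, limma adjusted p = 0.970). Its groups overlapped fully, with AMPK KO holding both the highest and the lowest value. The mitochondrial pair, thioredoxin Txn2 and its reductase Txnrd2, gave log2 fold changes of 0.08 and −0.36 (adjusted p of 0.842 and 0.671 in limma). The log2 fold change of Txnrd2 was −0.06 without AMPK KO 3 and −0.62 without WT 1. Txnrd2 overlaps another gene on the opposite strand, and whether reads were counted by strand is not given in the sources used here.

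Among the other peroxiredoxins, 4 of 5 had a log2 fold change above 0 and none was called. Prdx3, which clears peroxide in the mitochondrial matrix, was at 3.21, 3.52 and 2.52 in WT and at 4.24, 3.88 and 4.17 in AMPK KO. No AMPK KO value reached down into the WT range, and the log2 fold change of 1.01 missed the threshold (SE 0.32, limma adjusted p = 0.0813). Prdx2, a second cytosolic peroxiredoxin, was at 5.77, 5.74 and 5.49 in WT and at 6.06, 6.01 and 5.79 in AMPK KO (log2 fold change 0.29, SE 0.18, limma adjusted p = 0.378). These groups were separated by a narrow margin, and Prdx2 overlaps Junb and Rnaseh2a on the opposite strand.

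Prdx6, a peroxiredoxin that uses glutathione in place of thioredoxin, lay in the other direction. It was at 9.09, 8.78 and 8.96 in WT and at 8.28, 8.72 and 8.47 in AMPK KO, from 3680 to 5010 reads. Each AMPK KO value was below each WT value, AMPK KO 2 only just, and the log2 fold change of −0.45 was not called (SE 0.15, limma adjusted p = 0.0918). With values scaled to the reads outside Rn45s, Prdx6 and Nfe2l2 did pass, both lower in AMPK KO. Prdx5, which is found in mitochondria, peroxisomes and cytosol, had overlapping groups and a log2 fold change of 0.37 (adjusted p = 0.437 in limma), and it overlaps Trmt112 on the opposite strand. Without AMPK KO 1 its log2 fold change was 0.59.

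Gpx1, the main cytosolic glutathione peroxidase, was at 7.94, 7.90 and 7.63 in WT and at 8.10, 8.54 and 8.40 in AMPK KO, from 1743 to 4005 reads. The groups did not overlap, and the log2 fold change of 0.53 came close to the threshold (SE 0.15, limma adjusted p = 0.0574). Gpx4, which reduces lipid hydroperoxides, had a log2 fold change of 0.27 with overlapping groups (SE 0.24, limma adjusted p = 0.561). It was 0.016 without AMPK KO 2, 0.12 without WT 2 and 0.42 without AMPK KO 3. A pseudogene, Gpx4-ps2, is nearly identical to its 3′ end, so reads could be split between them.

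Sod1, the cytosolic superoxide dismutase, was at 9.90, 9.70 and 9.65 in WT and at 9.97, 10.46 and 9.997 in AMPK KO, with 7118 to 15137 reads. The AMPK KO values were all above WT, but AMPK KO 1 exceeded WT 1 by little, and the log2 fold change of 0.39 was not called (SE 0.16, limma adjusted p = 0.170). Sod1 overlaps Scaf4 on the opposite strand. Sod2, the mitochondrial form, had a log2 fold change of 0.52 (SE 0.24, limma adjusted p = 0.234), and catalase (Cat), which breaks down peroxide in peroxisomes, had 0.27 (adjusted p = 0.544 in limma), both with overlapping groups. Without AMPK KO 2 the log2 fold change of Sod1 was 0.23 and that of Cat 0.10, and without WT 2 that of Cat was 0.16. The last 200 bases of Sod2 closely match transcripts of 7 other genes, so its reads could be split.

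None of the 4 genes that make or reduce glutathione was called. Gclc and Gclm, the catalytic and modifier subunits of the rate-limiting ligase, had log2 fold changes of 0.01 (SE 0.19, limma adjusted p = 0.983) and −0.71 (SE 0.40, limma adjusted p = 0.337). Gclc was tight in WT, at 5.63 to 5.66, and spread from 5.34 to 5.89 in AMPK KO. Gss, the synthetase of the second step, was at 2.20, 2.35 and 1.09 in WT and at 3.06, 2.72 and 2.56 in AMPK KO, without overlap, but with only 10 to 87 reads (log2 fold change 0.90, SE 0.42, limma adjusted p = 0.233). Gss overlaps Acss2 on the opposite strand. Without WT 3, the highest WT value of Gclm and the lowest of Gss, the log2 fold changes were −0.33 and 0.50, and without AMPK KO 3 that of Gclm was −0.38.

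Gsr, the reductase that recharges glutathione, had the second largest log2 fold change of the group, 1.18, and the largest SE, 0.56 (limma adjusted p = 0.239). Its level was 1.33, 3.04 and 1.55 in WT and 3.67, 1.85 and 3.94 in AMPK KO. WT 2 and AMPK KO 2 each went against their group, so the groups overlapped. Without AMPK KO 2 the gene passed the threshold, with a log2 fold change of 1.83 (adjusted p = 0.0202 in limma).

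Both glutaredoxins that were tested had groups that did not overlap, and neither was called. Glrx, the cytosolic glutaredoxin that removes glutathione from proteins, was at 3.14, 3.82 and 3.16 in WT and at 4.58, 4.49 and 3.86 in AMPK KO (log2 fold change 0.94, SE 0.31, limma adjusted p = 0.0902). AMPK KO 3 was only just above WT 2. Glrx5, which serves iron-sulfur cluster assembly in mitochondria, was at 5.15, 5.26 and 5.42 in WT and at 5.75, 5.52 and 5.46 in AMPK KO (log2 fold change 0.30, SE 0.19, limma adjusted p = 0.388).

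Of the glutathione transferases, Gsto1 came nearest to a call. This omega-class enzyme was at 3.40, 3.07 and 3.42 in WT and at 4.25, 4.20 and 4.22 in AMPK KO, from 74 to 213 reads. The AMPK KO libraries were nearly equal (SD 0.02) and all above WT, and the log2 fold change of 0.92 had an adjusted p of 0.0607 in limma (standard error 0.27). Gsto1 overlaps Cfap43 on the opposite strand. The microsomal transferase Mgst1 was at 0.28, 1.26 and 0.54 in WT and at 1.75, 1.42 and 1.67 in AMPK KO, from 2 to 28 reads (log2 fold change 0.92, SE 0.45, limma adjusted p = 0.258). Its WT mean of 0.69 is under the level used as the filter, so it was tested only because AMPK KO is higher. Gstp1 and Gstm1 had log2 fold changes of 0.17 and 0.19 with overlapping groups. With single libraries left out these were 0.042 (without AMPK KO 2) to 0.35 (without AMPK KO 3) for Gstp1 and 0.060 (without WT 2) to 0.33 (without WT 1) for Gstm1. Gstp1 shares nearly all of its 3′ end with Gstp2, so that reads could be split between these copies.

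The 4 pentose phosphate genes, which restore NADPH, all had log2 fold changes above 0, from 0.01 to 0.65, and all had overlapping groups. G6pdx, the first enzyme of the route, was at 4.46, 2.85 and 3.51 in WT and at 4.43, 4.07 and 4.29 in AMPK KO. AMPK KO lay inside the WT range, with WT 2 and WT 3 low, and the log2 fold change was 0.65 (SE 0.36, limma adjusted p = 0.316). The log2 fold change of G6pdx was 0.27 without WT 2 and 1.08 without WT 1. G6pdx is on the X chromosome, as is Prdx4, and it overlaps Ikbkg on the opposite strand. Pgd, Tkt and Taldo1 gave log2 fold changes of 0.07, 0.21 and 0.01, with adjusted p of 0.897, 0.639 and 0.975 in limma.

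Neither regulator was called, and both had log2 fold changes below 0. Nfe2l2 was at 6.86, 6.30 and 6.33 in WT and at 6.01, 5.64 and 5.84 in AMPK KO, from 523 to 1063 reads. All AMPK KO values were below all WT values, and the log2 fold change of −0.67 lay just outside the threshold (SE 0.19, limma adjusted p = 0.0521). It passed, as lower in AMPK KO, in 5 of the 15 alternative settings, with log2 fold changes of −0.77 to −0.49 over all 15. Keap1 was at 5.24, 5.48 and 5.56 in WT and at 5.49, 5.19 and 5.08 in AMPK KO, with overlap (log2 fold change −0.17, SE 0.20, limma adjusted p = 0.664). With single libraries left out Keap1 ranged from −0.29 (without AMPK KO 1) to −0.084 (without AMPK KO 3). These are transcript levels, and NRF2 activity, which is set mostly by protein stability, was not measured. Nfe2l2 lies at chr2:75675513-75704641 on the minus strand.

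A further 120 genes of the same pathways, in 8 lists that were also written with earlier results known, were looked up for context. Of 104 tested, 6 were called higher and 3 lower, or 8.65% beside 5.65% of all tested genes, and their median log2 fold change was 0.05. Among 14 tested targets of NRF2 outside the 35 genes, 4 were called higher and none lower, or 28.6% beside 5.65% of all tested genes. Log2 fold changes were above 0 for 8 of the 14 and below 0 for 6. Of the 6, Ugdh was lower in every AMPK KO library than in WT but was not called (−0.64, adjusted p = 0.212 in limma). Slc7a11, the cystine importer that feeds glutathione synthesis, was at 2.33, 0.77 and 1.49 in WT and at 3.74, 3.27 and 3.42 in AMPK KO (log2 fold change 1.95, SE 0.43, limma adjusted p = 0.0163). Its reads were few, at 37, 7 and 16 in WT and 147, 93 and 115 in AMPK KO. Hmox1, heme oxygenase 1, was at 5.48, 5.03 and 5.49 in WT and at 6.19, 7.11 and 5.83 in AMPK KO (log2 fold change 1.05, SE 0.27, limma adjusted p = 0.0352). The ferritin chains Ftl1 and Fth1, which store iron, rose by 0.83 and 0.60 on the log2 scale (adjusted p of 0.00522 and 0.0171 in limma). These 4 called genes all had AMPK KO values wholly above WT. Ftl1 has a nearly identical copy, Ftl1-ps1, with which reads could be shared.

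Of the 14 genes for regulators and partners of NRF2, 3 were called lower and none higher, or 21.4% beside 5.65% of all tested genes. Log2 fold changes were below 0 for 8 of the 14 and above 0 for 6. Of the 6, Fbxw11 was higher in every AMPK KO library than in WT but was not called (0.61, adjusted p = 0.0895 in limma). Among those called lower were Bach2, a repressor that competes at related elements and restrains effector programs in T cells (log2 fold change −0.80, adjusted p = 0.0460 in limma), and the kinase Gsk3b (−0.83, adjusted p = 0.00432 in limma), which marks NRF2 for degradation. Bach2 was at 6.75, 6.52 and 6.94 in WT and at 6.18, 5.38 and 6.25 in AMPK KO, without overlap. Of 16 genes with a thioredoxin fold or that bind thioredoxin, Txndc17 rose by 0.77 on the log2 scale (adjusted p = 0.0303 in limma), and of 15 further NADPH genes Nadk, the cytosolic NAD kinase that makes NADP, rose by 0.91 (adjusted p = 0.0371 in limma). No call was made in limma among 16 genes of glutathione use and supply (5 at an unadjusted p under 0.05), 14 of selenoproteins and their synthesis (2), 9 that produce superoxide or peroxide (3) and 6 sestrins and FOXO factors (2), although all 6 of the latter had log2 fold changes below 0. At the same unadjusted threshold 2405 of all 11279 tested genes passed.

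Leaving out single libraries ended most of the named calls of these wider lists. Gsk3b was called in all 6 such fits, Slc7a11 and Ftl1 in 4, Fth1 and Bach2 in 3, Hmox1 and Nadk in 2 and Txndc17 in 1. Without WT 3 all but Gsk3b were lost, without WT 1 all but Gsk3b and Slc7a11, and without AMPK KO 1 all but Gsk3b and Ftl1. Hmox1 and Txndc17 were also lost without WT 2, and Nadk and Txndc17 without AMPK KO 3. Without AMPK KO 2 the log2 fold changes of Hmox1 and Bach2 were 0.68 and −0.52, and both passed (adjusted p of 0.041 and 0.049 in limma).

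**Figure D4:**
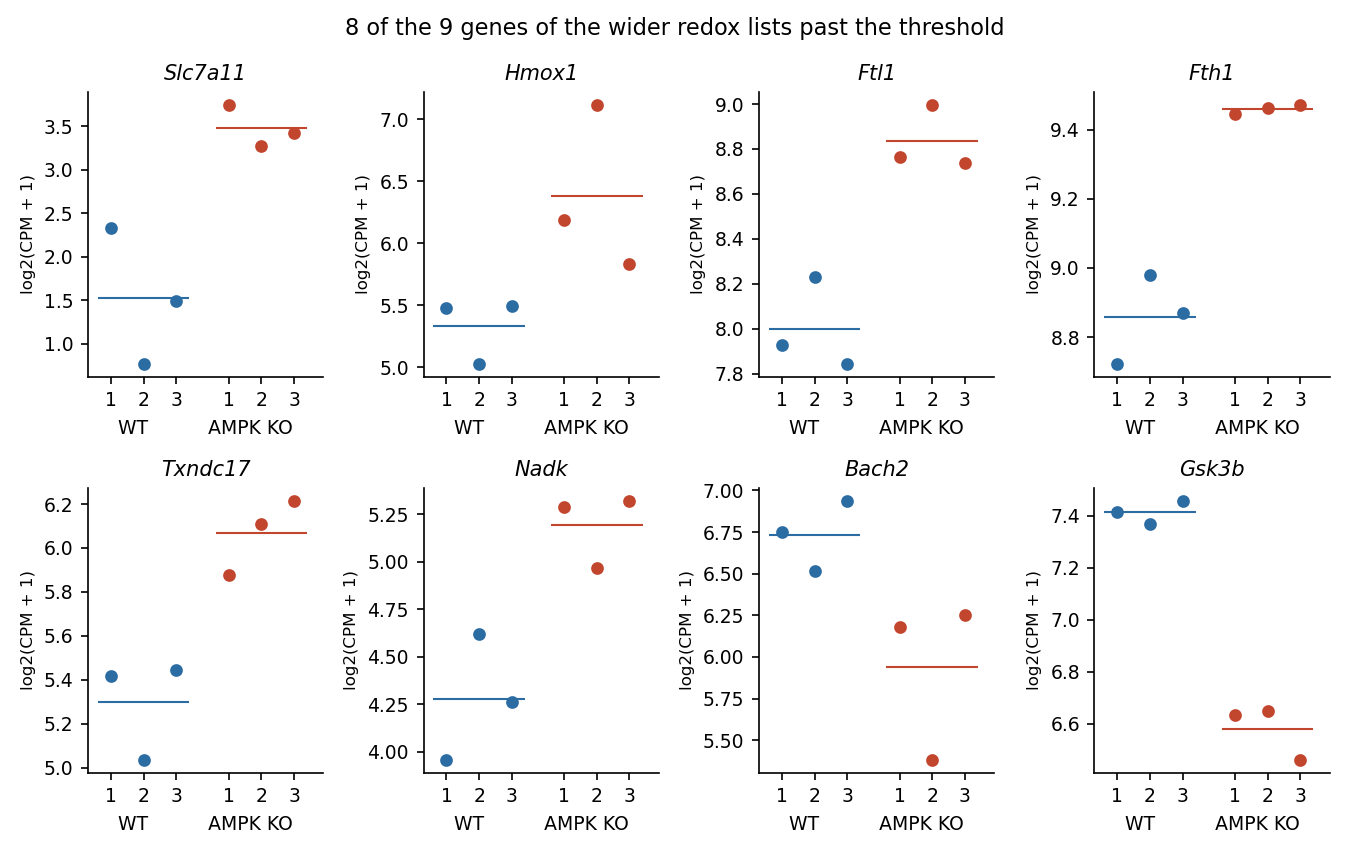
Level of 8 of the 9 called genes from the wider lists in each library, as log2(CPM + 1), with WT libraries 1 to 3 in blue, AMPK KO libraries 1 to 3 in red and a line at each group mean; the axes do not start at 0. Slc7a11, Hmox1, Ftl1, Fth1, Txndc17 and Nadk are higher in every AMPK KO library than in any WT library, and Bach2 and Gsk3b are lower.

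Some of these genes varied more within a group than between groups. The deviations of all tested genes from their group means correlated between WT 2 and AMPK KO 1 (r = 0.168) and AMPK KO 3 (r = 0.241), and between AMPK KO 2 and WT 1 (r = 0.148) and WT 3 (r = 0.202), so that the libraries fell into a set of WT 2, AMPK KO 1 and AMPK KO 3 and a set of WT 1, WT 3 and AMPK KO 2 that no label explains. Gsr was high in the first set and low in the second, and within the sets its log2 difference was 0.77 and 0.41. Txnip, which inhibits thioredoxin, showed the same division more strongly, at 5.04, 7.25 and 5.11 in WT and at 7.23, 4.49 and 7.97 in AMPK KO, with differences of 0.35 and −0.58 within the sets. Prdx4, the peroxiredoxin of the endoplasmic reticulum, was lowest in WT 2, at 2.09, 0.68 and 2.14 in WT and at 3.02, 1.52 and 3.07 in AMPK KO (log2 fold change 0.90, SE 0.52, limma adjusted p = 0.341), and its differences within the sets were 2.37 and −0.60. Its log2 fold change was 0.42 without WT 2, where it had only 6 reads, and 1.41 without AMPK KO 2. Within the sets the called genes, whose groups do not overlap and so differ one way under any split, gave differences of 1.64 and 2.11 for Srxn1, 0.69 and 0.83 for Txn1, and 0.33 and 0.89 for Prdx1. Sets this small, found in the same libraries, allow no test of their own.

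Markers of macrophages moved with the groups and with the libraries. Of 9 tested macrophage markers 7 were called higher in AMPK KO and all 9 had log2 fold changes above 0, with a median of 1.24. The summed level of the list was 431.7 to 492.8 CPM in WT and 831.9 to 1554 CPM in AMPK KO, highest in AMPK KO 2, and Mertk was at 0 in every WT library and at 0.67 to 0.74 in AMPK KO. Srxn1, Prdx1, Gpx1, Sod1 and Hmox1 were also highest in AMPK KO 2, whereas Txn1, Prdx3 and Slc7a11 were highest in AMPK KO 1. Over the 32 tested genes the highest library of the AMPK KO group was AMPK KO 2 in 15 (46.9%), AMPK KO 1 in 13 (40.6%) and AMPK KO 3 in 4 (12.5%), whereas over all tested genes these shares were 39.2%, 25.3% and 35.5%. Of the T cell markers, 9 tested, Cd3e, Cd3g and Il7r fell and Thy1 rose, and their summed level was 3008 to 3245 CPM in WT and 2226 to 2791 CPM in AMPK KO. Plasma cell markers summed to 197.5 to 247.4 CPM in WT and 511 to 545.4 CPM in AMPK KO, with Jchain called higher. Of the remaining lists, neutrophil markers had 2 of 8 tested called lower, NK and CD8 markers 1 of 6 and platelet markers 1 of 3 called higher, and B cell and erythroid markers none of 7 each in limma (1 and 0 at an unadjusted p under 0.05, beside 2405 of all 11279 tested genes). Several such markers were high in both groups. Cd8b1 was at 7.165 to 7.61 in WT and 7.585 to 7.98 in AMPK KO, above Cd4 in every library (6.53 to 6.83 and 6.14 to 6.55). The erythroid gene Hba-a1 was at 11.19 to 11.48 in WT and 10.42 to 11.66 in AMPK KO. The neutrophil gene S100a8 was at 8.43 to 8.58 and 7.69 to 8.39. The study isolated its CD4 T cells with magnetic beads or a cell sorter, a step meant to remove other cells. The part of these markers in the levels of the antioxidant genes was not tested.

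**Figure D5:**
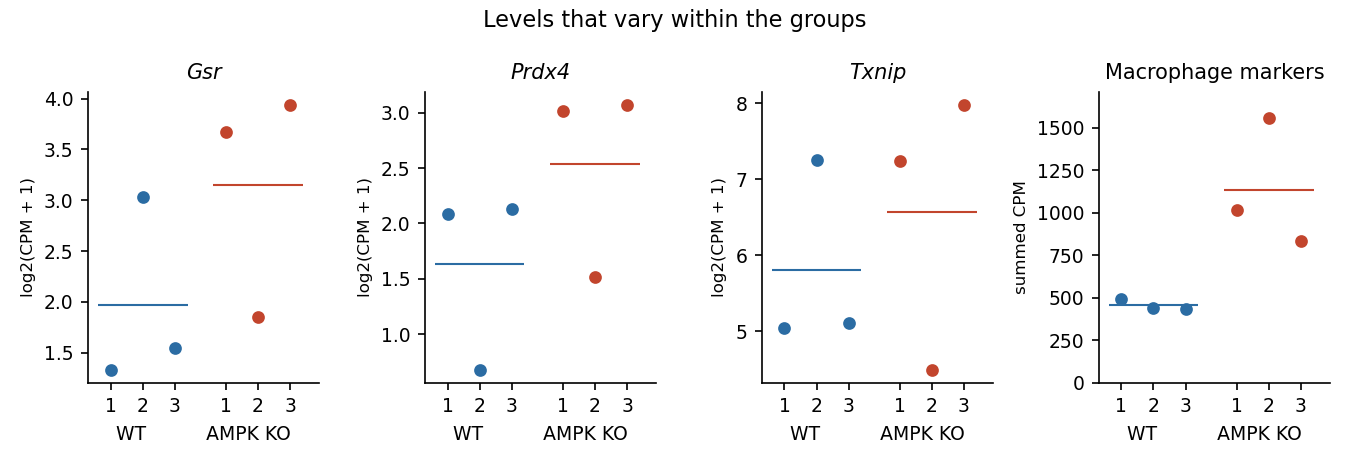
Level of Gsr, Prdx4 and Txnip, as log2(CPM + 1) on axes that do not start at 0, and summed CPM of the macrophage markers on an axis from 0, in WT libraries 1 to 3 (blue) and AMPK KO libraries 1 to 3 (red) with a line at each group mean. Gsr and Txnip are high in WT 2, AMPK KO 1 and AMPK KO 3, Prdx4 is low in WT 2 and AMPK KO 2, and the macrophage markers are highest in AMPK KO 2.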

How the data were processed

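RNA of CD4 T cells was analysed in 3 WT and 3 AMPK KO samples. The authors normalized the reads (TMM, then CPM), added 1 and deposited log2 values. The submitters' processing notes name Bowtie2, bedtools and mm10. Versions, annotation and strand setting are not given in the sources used here. Up to 100 reads, 100% of values lay within 0.1 of whole reads, from which the reads and depths were recovered.

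Genes whose level averaged 1 or more in the 6 libraries were fitted with lmFit and eBayes (with trend) of limma 3.58.1 in R 4.3.3, with genotype alone, two-sided and with Benjamini-Hochberg adjustment over all tested genes (threshold 0.05). For a single gene, an exact permutation test of 3 against 3 cannot go below 0.1. The fit was also run on simulated data, and no result here rests on that run. The alternatives were quantile normalization, other filters (none, or a mean of at least 3), a pseudocount of 0.25, scaling to reads outside Rn45s, voom on recovered reads, a replicate block, a term for the library sets, a robust spread, a threshold of 0.1 and leaving out each library.

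The 35 genes and all lists were chosen with earlier results of these data known. All called genes, all genes whose groups do not overlap, and the largest change of each role were named with values. A called gene of the wider lists is not reported here. Older symbols were matched through RefSeq, which left Trac and Ahsp unmatched. Gene coordinates are from GENCODE M21 (GRCm38, as mm10), and promoters from RefSeq. Summaries and plots used Python 3.11.15 with pandas 2.3.3 and matplotlib 3.10.9.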

Additional observations from a re-analysis of the deposited data

How the results depend on the processing

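Of the 35 genes, 3 were called, and this number was 0 without a filter on low values, 5 with a mean of at least 3, 5 after scaling to reads outside Rn45s, 8 with the library sets as a term, 5 with a robust spread, 9 at a threshold of 0.1, and 0 to 5 when each library was left out. The sets were found in the same libraries, so adjusted p values with that term are too small. Over all genes 637 were called, 308 without the filter, 1428 with the library sets as a term, and 127 to 1246 when each library was left out. With the replicate block, 0 of the 35 genes and 102 of all genes were called. The replicate numbers are only shared labels: deviations of same-numbered libraries correlated at −0.08, −0.32 and −0.16, so the numbers do not pair the samples, and calls lost with the block are not read as weaker effects. In every setting with a call, Srxn1 was among the genes called. The number of genes whose groups do not overlap, 14, was 13 after quantile normalization, 11 after scaling to reads outside Rn45s and 14 with a pseudocount of 0.25.

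The direction changed only for genes whose log2 fold change was 0.21 or less. After scaling to reads outside Rn45s, Gclc was at −0.058, Txnrd1 at −0.040 and Taldo1 at −0.055, and with the library sets as a term Gclc was at −0.064. When each library was left out, Gclc ranged from −0.10 to 0.17, Txn2 from −0.054 to 0.26, Txnrd1 from −0.22 to 0.36, Pgd from −0.19 to 0.24, Tkt from −0.026 to 0.44 and Taldo1 from −0.15 to 0.16. The cause of these changes was not tested. Of the 29 tested genes not called, 19 moved by over 1.5 times in log2 fold change when some library was left out. Depth limits Nqo1, Mgst3, Mgst1, Txnrd2 and Gss, with at most 87 reads in a library, and also Prdx4 (6 to 88 reads) and Gstm1 (48 to 92).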
